A study of Rattus norvegicus with 30 samples.

Results

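Promoter capture of the ipsilateral hippocampus was compared with that of the perilesional cortex in 10 rats, each of which gave 1 library of either tissue. The promoter tables of both tissues were joined by Ensembl gene identifier, and the 19760 identifiers with a single set of counts in each table were kept, out of 20196 identifiers in the series. The comparison used 20 of the 30 libraries. All animals were adult male Sprague-Dawley rats. Rats 1 to 5 were sham-operated controls, which had anaesthesia and craniectomy without the impact, and rats 6 to 10 had traumatic brain injury (TBI) by lateral fluid percussion, in which a pressure pulse is applied to the exposed dura. Tissue was taken 3 months after the operation. The extraction protocol in the sample labels describes the hippocampal piece as dentate gyrus with an adjoining stretch of CA3, and both tissues were dissected by hand from the same coronal slices. Each library holds the mixed cells of 1 dissected piece.

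In neurons and glia, cytosine methylation is found mostly at CpG dinucleotides, and methylation of a promoter often goes with low activity of its gene. Patterns of promoter methylation are laid down during development and differ between cell types, so that pieces of brain with different cell mixtures give different profiles. Methyl-binding domain sequencing (MBD-seq) pulls down sheared DNA through a protein domain with affinity for methylated CpG. The count of a promoter therefore depends on methylation, on CpG density and on how well the pull-down worked, and it is not a percentage of methylated sites. In a dissected piece, a different share of a cell type and a different methylation level per cell cannot be told apart.

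Total counts over the matched promoters were 1648405 to 3730846 per cortex library (median 1792239) and 1269700 to 2126173 per hippocampus library (median 1795392). The median promoter had a mean of 65.0 counts in the cortex and 42.9 in the hippocampus, and 0.547% and 8.42% of promoters, respectively, had a mean under 10 counts. Low promoters were therefore measured less precisely in the hippocampus. Values are given as CPM, a promoter's count scaled to a common library total, after TMM scaling, which sets the bulk of promoters equal between libraries, so every difference is relative to the bulk of promoters and not an absolute amount of methylated DNA. Since the data are DNA counts by identifier, without gene symbols, the tissue labels could not be checked against marker genes.

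The profiles of 3 libraries went against their tissue labels. Each library was correlated, across promoters on the log2 scale, with the average of both tissues, its own values left out. The cortex library of rat 4 had a Pearson r of 0.901 with the other cortex libraries and 0.967 with the hippocampus libraries. For the cortex library of rat 6, these values were 0.877 and 0.961. The hippocampus library of rat 5 had an r of 0.948 with the cortex and 0.843 with the other hippocampus libraries. The other 17 libraries were closest to the tissue on their label. Among them, the cortex libraries of rats 10 and 1 had the lowest r with their own tissue, 0.684 and 0.885 (0.534 and 0.728 with the hippocampus). The 3 libraries closer to the other tissue stayed so when the scaling was replaced by loess offsets, which remove any smooth trend of each library with promoter level. The cortex libraries of rats 10 and 1 then had an r of 0.940 and 0.968 with the other cortex libraries. The first principal component held 63.7% of the variance and 43.7% with loess offsets. Cortex libraries ranged from −109.9 to −37.9 on it except those of rats 4 and 6 (29.7 and 37.4), and hippocampus libraries from 18.0 to 76.9 except that of rat 5 (−46.5). These correlations describe libraries that share the same promoters, and promoters are not independent replicates. All 20 libraries were kept under their labels, and results are given with and without these 3.

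**Figure D1:**
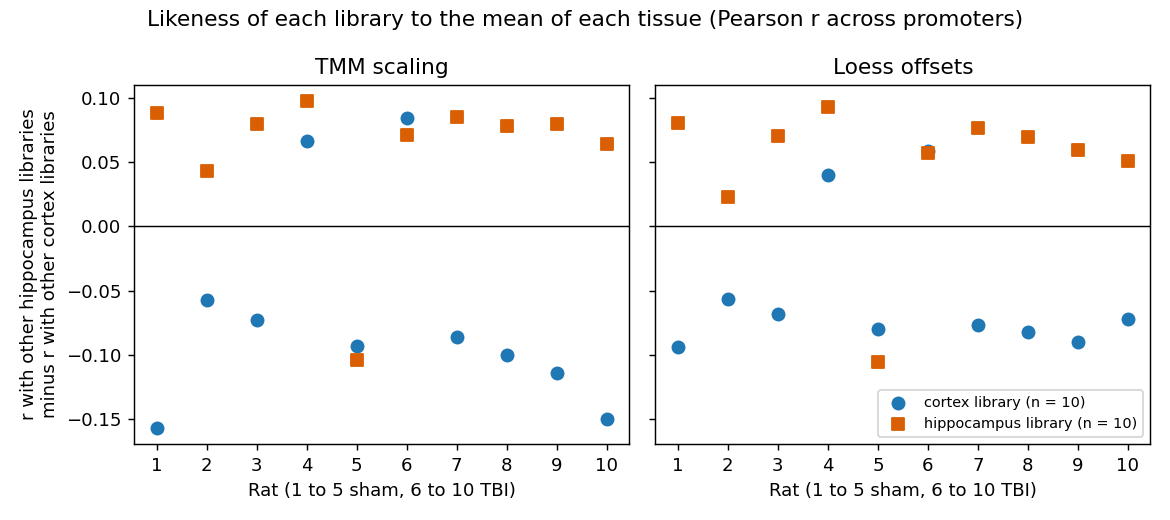
For each rat (x axis), the y axis shows the Pearson r of a library with the mean of the other hippocampus libraries minus its r with the mean of the other cortex libraries, under TMM scaling (left) and loess offsets (right). Circles are cortex and squares hippocampus libraries. Circles of rats 4 and 6 lie above 0 and the square of rat 5 lies below 0 in both panels, while the other 17 libraries lie on the side of their label.

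In the 10 rats, 11216 of 19168 tested promoters (58.5%) differed between hippocampus and cortex at an adjusted p under 0.05 in edgeR's quasi-likelihood test with Benjamini-Hochberg adjustment and the rat as a block. Capture was higher in the hippocampus at 5555 promoters (29.0%) and lower at 5661 (29.5%). Most differences were small. The 5th and 95th percentiles of the log2 fold change, hippocampus over cortex, were −1.21 and 0.93, with a median of −0.05. More than 2-fold changes were called at 712 promoters with higher and 1775 with lower capture. The number of calls depended on the scaling, with 5882 calls under loess offsets (30.7%), 2936 higher (15.3%) and 2946 lower (15.4%). The split of directions depended on it as well. When library totals replaced TMM, the median log2 fold change was −0.33, a shift of −0.28, and 2374 promoters were called higher and 8409 lower. Directions are therefore given relative to the TMM level throughout.

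The sign and size of the difference followed how strongly a promoter was captured. To avoid sorting promoters by the same libraries that were compared, 5 groups of equal size were formed by level in the thalamus libraries of the same rats. Group 1 was the lowest (median 11.02 CPM) and group 5 the highest (median 81.6 CPM). Thalamus CPM were scaled to library totals without TMM, here and below, unlike those of the cortex and hippocampus. The median log2 fold change, hippocampus over cortex, was −0.61 in group 1, −0.40 in group 2, −0.11 in group 3, 0.20 in group 4 and 0.56 in group 5. Lower capture in the hippocampus was called at 48.4% of promoters in group 1 and 4.98% in group 5. Higher capture was called at 4.20% of promoters in group 1 and 68.8% in group 5. Relative to the bulk of promoters, weakly captured promoters were thus lower and strongly captured promoters higher in the hippocampus than in the cortex. The order of the medians was the same in the sham rats (−0.50 in group 1, 0.46 in group 5) and in the TBI rats (−0.71 and 0.63). With loess offsets, which remove such a trend by construction, the medians were 0.10 in group 1 and −0.07 in group 5.

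Each rat showed the same trend to a different extent. The log2 ratio of group 5 minus that of group 1 was 2.09, 0.59, 1.17, 0.41 and 0.21 in sham rats 1 to 5, and 0.22, 1.36, 1.501, 0.63 and 2.62 in TBI rats 6 to 10. It was positive in 10 of 10 rats (mean 1.08 ± 0.82, SD), with an exact two-sided sign-flip permutation p of 0.00195, the smallest that 10 pairs allow, and 0.0117 after adjustment over 6 library measures. The highest values were those of rats 10 and 1, whose cortex libraries had a low r with the other cortex libraries under TMM scaling. The lowest 3 values were those of rats 4, 5 and 6, which hold the 3 libraries closest to the other tissue. Without these pairs the mean was 1.42 and the exact permutation p 0.0938 after adjustment, where 7 pairs allow no unadjusted p below 0.0156. The trend did not differ beyond the spread between TBI (mean 1.26) and sham rats (mean 0.89, exact permutation p = 0.5).

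**Figure D2:**
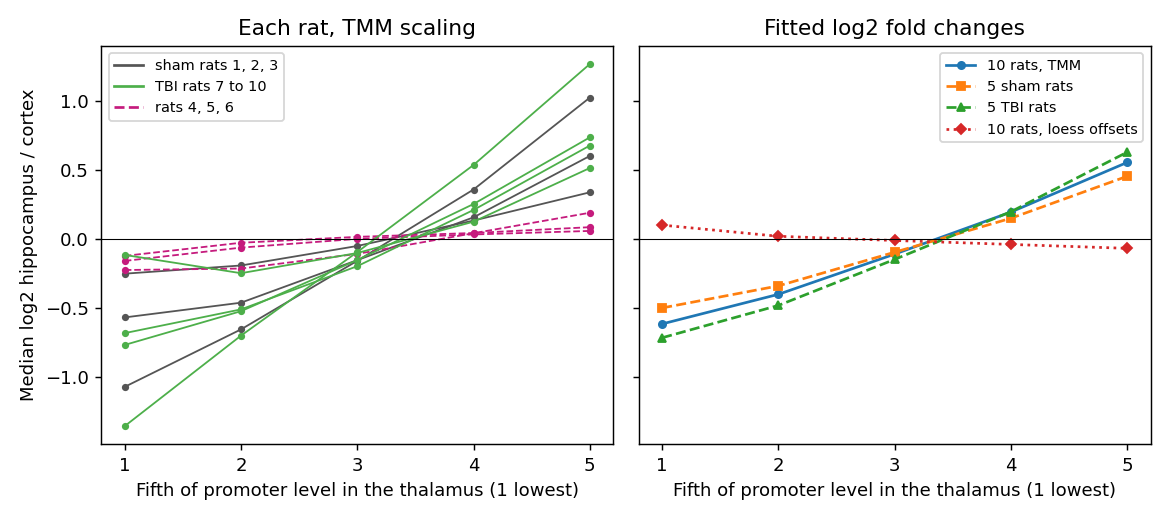
Left, median log2 ratio of hippocampus to cortex (y axis) in 5 groups of promoters ordered by thalamus level (x axis), with 1 line per rat. Right, median fitted log2 fold change of the same groups in 10 rats, in sham rats, in TBI rats and with loess offsets. Group 5 lies above group 1 in each rat, least in rats 4, 5 and 6 (dashed), while the line of rat 9 first falls from −0.11 to −0.25, and the line with loess offsets stays between 0.10 and −0.07.

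Measures of whole libraries differed less clearly between the tissues. The 5% of promoters with the most counts held 24.4% to 59.4% of the counts in cortex libraries (median 26.9%) and 27.2% to 50.3% in hippocampus libraries (median 39.3%). This share was higher in the hippocampus in 9 of 10 rats, by 6.02 ± 8.88 percentage points (mean ± SD), with an exact permutation p of 0.0723 (adjusted p = 0.0984). The exception was rat 10, and without it the difference was 8.42 points. The rats left then all have the same sign, so their exact permutation p (adjusted p = 0.0117) is the smallest possible by construction. Promoters without a count made up 0.104% (median) of cortex and 0.245% of hippocampus libraries, and their share was higher in the hippocampus in 8 of 10 rats (exact permutation p = 0.00781, adjusted p = 0.0234). Without the pairs of rats 4, 5 and 6, the adjusted p of this share was 0.0938 and its mean difference 0.242 points. Total counts did not differ beyond the spread between rats (adjusted p = 0.0984). The share of counts at promoters of the lowest thalamus level was 5.99% in the cortex and 3.44% in the hippocampus (medians). It was lower in the hippocampus in 9 of 10 rats and missed the threshold (mean difference −1.74 points, adjusted p = 0.0547). Without rat 9, the only exception, the difference was −2.20 points. The adjusted exact permutation p of 0.0117 without rat 9 is again fixed by leaving out the contrary rat. The part of these measures in the promoter differences was not tested.

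The direction of the tissue difference was then compared between sham and TBI rats, which share no library. In sham rats, 2077 of 19348 tested promoters (10.7%) passed the threshold, 1050 higher (5.43%) and 1027 lower (5.31%) in the hippocampus. In TBI rats, 7830 of 19092 (41.0%) passed, 3874 higher (20.3%) and 3956 lower (20.7%). Among 18974 promoters tested in both, 1803 were called in the same direction in both and 0 in opposite directions. The shared calls were 88.6% of the 2034 sham calls and 23.1% of the 7815 TBI calls among those promoters. Of the sham calls, 99.9% had the same sign in TBI rats, against 88.7% of all promoters tested in both. Across promoters, the log2 fold changes of sham and TBI rats had a Pearson r of 0.91.

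The number of calls in sham rats rested on single animals and on the rat block. It was 343 without rat 1, 2 without rat 2, 5 without rat 3, 2 without rat 4 and 7015 without rat 5, whose hippocampus library was closest to the cortex. Without the rat block, 3 promoters were called in the sham rats. Library totals gave 3195 calls (362 higher and 2833 lower), and DESeq2 2392 calls (1546 higher and 846 lower). With loess offsets there were 315 calls. In TBI rats, calls numbered 3995 without rat 7, 3508 without rat 8, 4216 without rat 10 and 2451 with loess offsets. With library totals, 918 promoters were called higher and 5221 lower in TBI rats. The lower number of calls in sham rats does not show a different tissue effect, which was tested directly. In edgeR's interaction of tissue and treatment, 0 of 19168 promoters passed (smallest adjusted p = 0.998), 305 had an unadjusted p under 0.05, and DESeq2 also called 0 (156 unadjusted). The unadjusted count was 2833 with quality weights and ranged from 150 without rat 4 to 1454 without rat 6 (1103 without rat 1), with 0 calls in each of these fits. The 305 promoters of the main fit are fewer than chance alone gives on average at an unadjusted p under 0.05. Such a count varies widely where promoters move together, and whether that fit was conservative was not tested. The 0 calls of the main fit do not show that the tissue effect was equal in sham and TBI rats.

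When rats 4, 5 and 6 were set aside, the rats of both treatments gave closer numbers. Sham rats 1, 2 and 3 gave 7304 calls among 19420 tested promoters (37.6%), 3696 higher (19.0%) and 3608 lower (18.6%). TBI rats 7 to 10 gave 10758 among 19494 (55.2%), 5014 higher (25.7%) and 5744 lower (29.5%). Among 19334 promoters tested in both, 6624 were called in the same direction and 0 in opposite directions. The shared calls were 90.9% of the sham and 61.8% of the TBI calls, and the log2 fold changes had an r of 0.92. The rats set aside were chosen for their profiles, so that a higher number of calls without them follows in part from the choice.

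**Figure D3:**
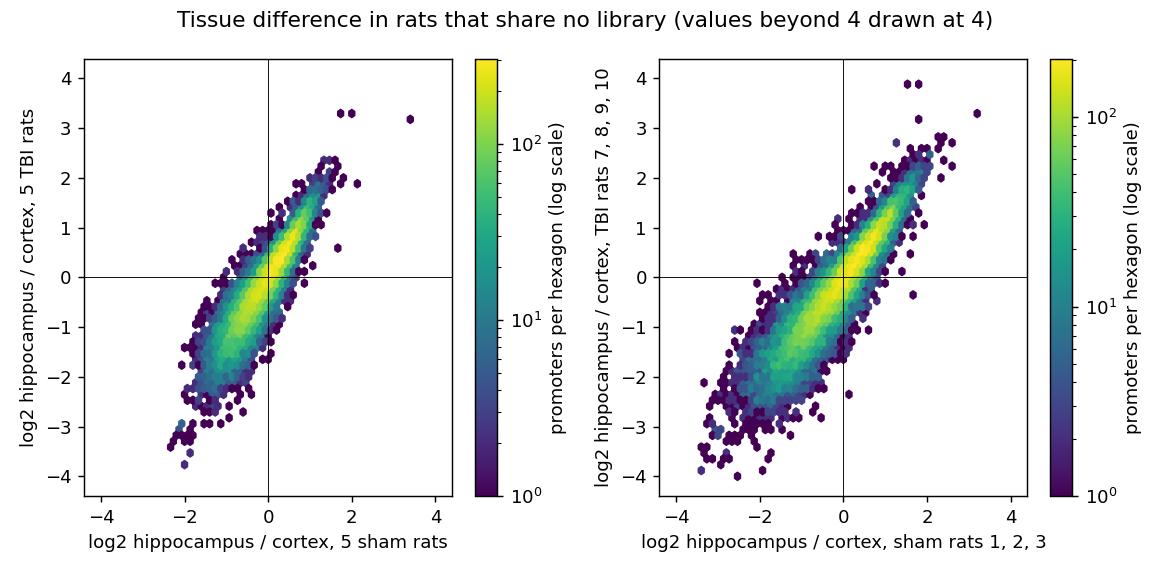
Log2 fold change of hippocampus over cortex in sham rats (x axis) against TBI rats (y axis), with all 5 rats of each (left) and without rats 4, 5 and 6 (right). Colour gives the number of promoters per hexagon on a log scale. The clouds run along the diagonal through 0, with a Pearson r of 0.91 (left) and 0.92 (right) across promoters.

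Without the cortex libraries of rats 4 and 6 and the hippocampus library of rat 5, 12873 of 19399 promoters (66.4%) were called, 6384 higher (32.9%) and 6489 lower (33.5%) in the hippocampus. With the rat block this fit rests on the 7 rats with both libraries, since a rat with 1 library carries no tissue difference. Without the block, 8 cortex and 9 hippocampus libraries gave 13912 calls. The pairs of the 3 rats that were set aside showed the tissue difference to unequal extents. Across promoters, the log2 ratio of rat 4 had an r of 0.59 with the mean ratio of the 7 other whole pairs, against 0.13 in rat 5 and 0.15 in rat 6. In each of the 7 whole pairs, the r with the mean of the other 6 was between 0.67 (rat 2) and 0.91 (rat 1).

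The 6 libraries of rats 4, 5 and 6, which had no part in the 7-pair fold changes, were placed on the scale between the tissue means. On this scale, 0 is the mean of the 7 cortex and 1 the mean of the 7 hippocampus libraries, and the positions are medians over promoters called with more than a 2-fold change. At the 1842 promoters with higher capture in the hippocampus, the cortex libraries of rats 4 and 6 lay at 0.93 and 0.90 and that of rat 5 at 0.16. The hippocampus libraries of rats 4 and 6 lay at 1.22 and 0.95 and that of rat 5 at 0.22. At the 2847 promoters with lower capture, the cortex libraries of rats 4, 5 and 6 lay at 0.72, 0.07 and 0.84 and the hippocampus libraries at 1.13, 0.09 and 0.92. At both kinds of promoter, the cortex libraries of rats 4 and 6 were thus near the hippocampus. The hippocampus library of rat 5 was near the cortex at both. These libraries had been set aside for profiles closer to the other tissue, so their positions follow in part from that choice. Of the promoters with higher capture, 3.31% and 3.53% were on the cortex side in the cortex libraries of rats 4 and 6. In the hippocampus library of rat 5, 5.86% of them were on the hippocampus side. In the other 3 libraries, 98.2% to 99.8% of these promoters were on the side of the label. At the promoters with lower capture, the shares on the side of the label were 23.1% and 16.9% in the cortex libraries of rats 4 and 6 and 9.98% in the hippocampus library of rat 5, and 87.3% to 95.7% in the other 3. With loess offsets, the cortex libraries of rats 4 and 6 and the hippocampus library of rat 5 lay at 0.90, 0.84 and 0.08 at 408 promoters with higher capture and at 0.65, 0.88 and −0.11 at 689 with lower capture. The cortex library of rat 4 lay less far toward the hippocampus at the latter, with 31.2% of them on the cortex side.

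**Figure D4:**
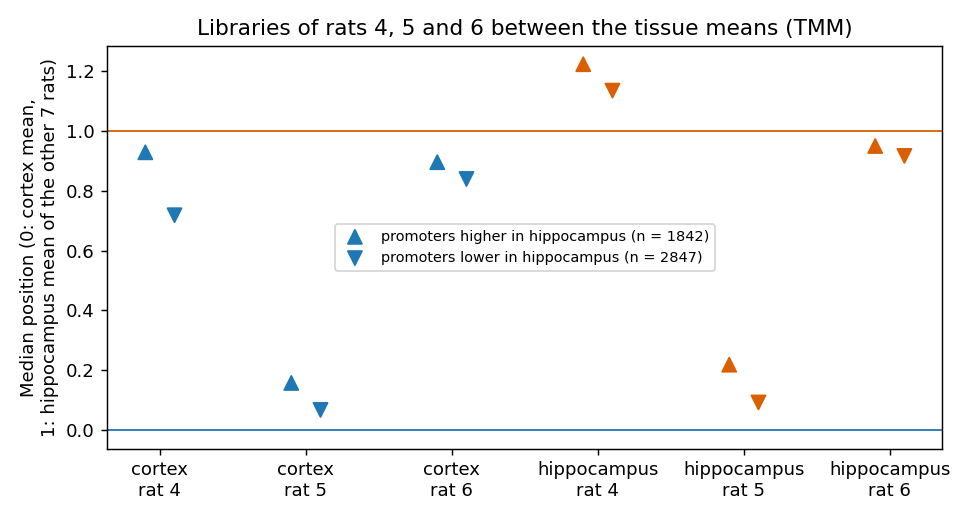
Median position (y axis) of the 6 libraries of rats 4, 5 and 6 (x axis) between the mean of the cortex (0) and of the hippocampus (1) libraries of the 7 other rats. Upward triangles stand for promoters higher and downward triangles for promoters lower in the hippocampus. The cortex libraries of rats 4 and 6 lie between 0.72 and 0.93, and the hippocampus library of rat 5 lies between 0.09 and 0.22.

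Few promoters separated all 20 libraries by their labels. Under TMM scaling, the 10 hippocampus libraries were all above the 10 cortex libraries at 47 promoters (0.245% of those tested) and all below at 39 (0.203%). When the 3 libraries were not counted, these numbers were 3451 (18.0%) and 2161 (11.3%). The 3 were left out for their profiles, and fewer libraries separate more easily, so the rise follows in part from the choice. At 1841 of the 3451 and 1078 of the 2161, each of the 3 libraries lay within or beyond the range of the tissue it was not labelled as. With loess offsets, 1032 promoters (5.38%) were higher and 1141 (5.95%) lower without the 3 libraries, whereas 31 (0.162%) were higher and 30 (0.157%) lower in all 20 libraries. Without overlap under both scalings were 7 higher and 10 lower promoters. The 7 higher promoters had log2 fold changes of 0.58 to 3.25 and the 10 lower ones −2.04 to −0.41, with mean levels of 15.6 to 106 CPM. The thalamus mean of the same rats was nearer to the cortex than to the hippocampus mean at 4 of the 7 and at 9 of the 10. No such count was made over all tested promoters, so these numbers are a description and not a trait of these promoters.

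A pair of identifiers was singled out from these 17 promoters after their values were seen, as those with the smallest p in each direction. ENSRNOG00000006876 had 4.85 to 21.5 CPM in the cortex (median 11.4, 10 to 41 counts per library) and 40.5 to 168 CPM in the hippocampus (median 109, 85 to 238 counts). The tissues did not overlap, and the hippocampus was higher in 10 of 10 rats. The mean was 11.8 ± 4.74 CPM in the cortex and 113 ± 34.0 CPM in the hippocampus (SD, n = 10). The fitted log2 difference was 3.25 with an SE of 0.17, and its adjusted p of 1.153e-11 in edgeR's quasi-likelihood test was the smallest adjusted p of the comparison. It was 3.35 in sham rats, 3.14 in TBI rats and 3.18 with loess offsets. Since the promoter was picked for separating all 20 libraries, the 3 libraries closest to the other tissue are on the side of their labels by construction. The cortex libraries of rats 4 and 6 had 10.2 and 21.5 CPM, and the hippocampus library of rat 5 had 40.5 CPM. That of rat 5 was nevertheless the lowest of the hippocampus and that of rat 6 the highest of the cortex. In the thalamus, scaled without TMM, this promoter had 6.01 to 17.7 CPM. That is roughly the range of the cortex, with the highest value again in rat 6.

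ENSRNOG00000015030 had lower capture in the hippocampus. It had 34.0 to 49.3 CPM in the cortex (median 42.5) and 16.0 to 29.0 CPM in the hippocampus (median 22.2), without overlap and with the hippocampus lower in 10 of 10 rats. The log2 fold change was −0.92 (SE 0.12, edgeR adjusted p = 4.515e-05), −0.81 in sham and −1.06 in TBI rats. Rats 4 and 6 had 36.8 and 47.5 CPM in the cortex, and the hippocampus library of rat 5 had 19.05 CPM. The thalamus range, 25.5 to 46.4 CPM, overlapped both tissues.

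The other pair consists of the promoters with the smallest p in the 7 whole pairs, again chosen after the values were seen, whose levels in those pairs are therefore a description. ENSRNOG00000045529 had 10.8 to 22.7 CPM in 8 cortex libraries and 55.9 to 106 CPM in 9 hippocampus libraries. The cortex libraries of rats 4 and 6 had 75.8 and 44.2 CPM, and the hippocampus library of rat 5 had 20.5 CPM. Each of the 3 lay outside the range of its own tissue, yet within each of these rats the hippocampus was still the higher one. The log2 fold change was 1.64 (SE 0.21) in 10 rats and 2.18 (SE 0.16) in the 7 pairs. The thalamus had 13.3 to 30.0 CPM.

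ENSRNOG00000048115 had 39.5 to 102 CPM in 8 cortex libraries and 1.71 to 8.41 CPM in 9 hippocampus libraries, the lowest of which held 2 counts. The cortex libraries of rats 4 and 6 had 16.97 and 6.07 CPM, and the hippocampus library of rat 5 had 95.2 CPM, above its cortex library with 82.0 CPM. The hippocampus was lower in 9 of 10 rats. The log2 fold change was −2.75 (SE 0.33) in 10 rats and −3.65 (SE 0.18) in the 7 pairs. In the thalamus, 9 libraries had 31.2 to 71.6 CPM and that of rat 6 had 1.66 CPM, so that in rat 6 all 3 tissues were low. At this identifier, 1 other identifier had the same counts in each library, and the reads of both could not be told apart.

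**Figure D5:**
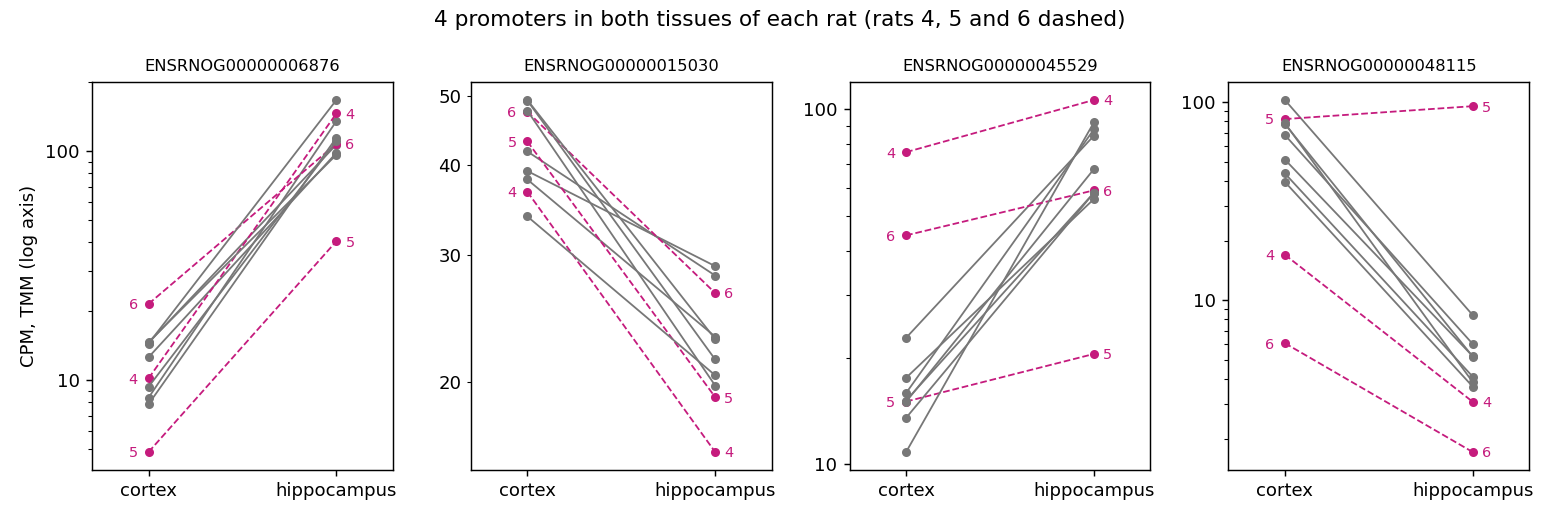
CPM after TMM scaling (y axes, log scale) of 4 promoters in the cortex and hippocampus library of each rat, joined by a line. Rats 4, 5 and 6 are dashed and numbered. In the panels of ENSRNOG00000006876 and ENSRNOG00000015030 the tissues do not overlap, and in the other panels the cortex libraries of rats 4 and 6 and the hippocampus library of rat 5 lie toward the other tissue.

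Promoters with very high counts changed in both directions. Of 34 promoters with a mean over 1000 CPM in the 20 libraries, 14 (41.2%) were called higher and 13 (38.2%) lower in the hippocampus. Among all tested promoters, these shares were 29.0% and 29.5%. The filter used the compared libraries themselves, so a promoter high in 1 tissue alone could pass it, and the shares are a description. Of the 13, 12 did not overlap between the tissues in any of the 20 libraries, and they are 12 of the 39 such promoters given above. The median CPM of these 12 was 217 to 890 in hippocampus libraries and 945 to 53189 in cortex libraries, so the group passed through the cortex. Together they held 1.06% to 44.9% of the counts in the cortex libraries (median 2.46%) and 0.206% to 1.21% in the hippocampus libraries (median 0.46%). The cortex libraries of rats 10 (44.9%) and 1 (21.1%) stood above the other 8, which had 1.06% to 4.62%. The highest share of the hippocampus was that of rat 5 and the lowest of the cortex that of rat 4, and on this scale without TMM these 2 libraries overlapped. Their log2 fold changes were −2.74 to −2.47 (median −2.53), and −4.23 at the median without the rat block. Across the 10 libraries of a tissue their levels moved together, with a pairwise Pearson r of log2 CPM of at least 0.999 in the cortex and 0.971 in the hippocampus and a Spearman rho of 1.0 and at least 0.927. Without the 2 libraries farthest from the median (rats 1 and 10 in the cortex, rats 5 and 10 in the hippocampus), r was at least 0.993 and 0.964. They are therefore not 12 independent observations, and whether they share reads was not tested. All 12 were called in each of the 21 alternative fits. These fits reuse the counts on which the 12 were chosen, so this adds no independent support.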

How the data were processed

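MBD-seq counts of perilesional cortex and ipsilateral hippocampus from 5 sham and 5 TBI rats were analysed. The authors captured sonicated DNA with MethylMiner beads, sequenced it, mapped reads to Rnor_5.0 with STAR without splicing and counted them with Repitools in R 3.1.0 from 5000 bp upstream to 200 bp downstream of each transcription start. The deposited values were whole-number counts without normalization. Exon and gene body tables were not used here. Rows of 436 identifiers with several sets of counts were left out, 405 identifiers shared their counts with another, and 5 had no count.

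Rows were filtered by filterByExpr (minimum count 10, minimum total 15) of edgeR 4.0.16 in R 4.3.3 and scaled by TMM. Hippocampus was compared with cortex by the quasi-likelihood F test with the rat as a block, with Benjamini-Hochberg adjustment (threshold 0.05). Equal rat numbers in the labels mark the same animal. The median r of same-rat deviations was 0.04, with 2 of 10 rats over 0.1. These were rats 4 (0.65) and 5 (0.44), while rat 1 was at −0.43 and the rest were at most 0.064 (rat 2). The pairing therefore rests on the labels. Library measures were compared by exact two-sided sign-flip permutation over 1024 sign patterns. Loess offsets used a span of 0.3, and log2 CPM a prior count of 2. Libraries of a group differed by more than counting noise (chi-square per degree of freedom at least 2.07 over 40 pairs). Labels do not say whether a piece was divided, so p-values measure the spread between these libraries. The test was also run on simulated counts with known changes. These had no rat effect, no trend with promoter level and no library close to the other tissue. That run therefore does not cover these features of the data.

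Alternatives used DESeq2 1.42.0 and limma 3.58.1, library totals, filters, quality weights, loess scaling, duplicate rows kept once, no block and leaving out each rat. Members and tests were chosen with earlier results of these data known. The named-gene rules, gene lists and promoter sequences required symbols, which were not paired with the identifiers in the sources used here. They were not applied, and 4 identifiers were instead picked with their values in view. Software was Python 3.11.15, pandas 2.3.3, scipy 1.17.1 and matplotlib 3.10.9.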

Additional observations from a re-analysis of the deposited data

Results flagged for a closer look

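Of 36 groups of 5 libraries, 8 contained 1 value set apart from the rest, where chance gives about 1 in 20 groups (1.8 of 36). Some of the groups are not independent of one another. Others hold values of the singled-out promoters, which were chosen from these same libraries. Part of that choice used a fit without the libraries closer to the other tissue, so the excess over 1.8 is in part built in. The cortex library of TBI rat 10 had 3730846 total counts (others 1723437 to 2181449). The hippocampus library of TBI rat 9 had 8.83% of its counts at the promoters of the lowest thalamus level (others 3.20% to 3.44%). The cortex library of sham rat 1 had 31.6% of its counts at promoters over 1000 CPM (others 10.6% to 15.9%).

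The remaining libraries far from their group were found at single promoters, in log2 CPM. ENSRNOG00000015030 was at 5.13 in the cortex of TBI rat 10 (others 5.60 to 5.66). ENSRNOG00000045529 was at 6.26 in the cortex of sham rat 4 (others 4.01 to 4.57) and at 5.50 in the cortex of TBI rat 6 (others 3.57 to 4.02). ENSRNOG00000048115 was at 2.84 in the cortex of TBI rat 6 (others 5.48 to 6.31) and at 6.59 in the hippocampus of sham rat 5 (others 2.05 to 3.25).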

How the results depend on the processing

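Calls in 10 rats (11216) were 5740 with voom and cyclic loess and 5882 with loess offsets (added once the data had been seen), and 9803 to 11831 without single rats. Exact testing under a single dispersion for all promoters, scaled by library totals, gave 8975 calls (1462 higher and 7513 lower). Calls in sham rats (2077) were 3195 with library totals, 245 with cyclic loess, 4259 with quality weights, 315 with loess offsets, 2 to 7015 without single rats and 7304 without rats 4 and 5. Calls in TBI rats (7830) were 2730 with cyclic loess, 2451 with loess offsets and 3508 to 10758 without single rats. Calls in 17 libraries (12873) were 8048 with cyclic loess, 8144 with loess offsets and 11846 to 13109 without single rats. The interaction gave 0 calls under its 20 alternatives. The cause of these changes was not tested.

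Without the replicate block there were 11138 calls in 10 rats, 3 in sham rats, 7548 in TBI rats and 13912 in 17 libraries, and it changed no other call.

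For the library measures, leaving out single rats moved the difference in group 5 minus group 1 between 0.908 and 1.18, that of promoters with no count between 0.156 and 0.22 points, that of the lowest-level share between −2.20 and −1.41, that of the top 5% share between 5.16 and 8.42, and that of the share over 1000 CPM between −0.000726 (without rat 3) and 3.68 (without rat 10, adjusted p = 0.0156 by exact permutation). Rat 10 went the other way in this last share, with 51.9% in the cortex and 26.0% in the hippocampus, so the low p without it follows in part from its removal. Without the pairs of rats 4, 5 and 6, the first 2 measures were 1.42 and 0.242 (adjusted p = 0.0938), where 7 pairs allow no exact p below 0.0156 before adjustment. The 4 singled-out promoters kept their direction and their call under every alternative that gave a value. They had been chosen for a small p in these same libraries, so this follows in part from the choice. Fold changes ranged from 2.96 to 3.46 for ENSRNOG00000006876, −1.24 to −0.86 for ENSRNOG00000015030, 1.24 to 2.25 for ENSRNOG00000045529 and −3.89 to −1.81 for ENSRNOG00000048115, which had too few counts for the filter of 10 counts in every library. The planned CpG correction was not run. Counts under 10 limit the precision at the weakest promoters, more of them in the hippocampus.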
